A study of Mus musculus with 20 samples.

Results

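Cxcl12, a chemokine, and its receptors Cxcr4 and Ackr3 were followed across endothelial cells sorted from mouse sciatic nerve. The 3 genes were taken by symbol from count tables of 55376 genes, and all 3 passed the filter on low counts in both experiments. In the nerve after injury Cxcr4 RNA rose 9.03-fold by 7 days and was 3.30-fold above intact at 14 days, while Cxcl12 and Ackr3 RNA fell 2.58-fold and 2.64-fold by 7 days and were still 2.02-fold and 2.66-fold below intact at 14 days. With endothelial deletion of Plxnd1 none of the 3 was called on the raw counts (edgeR with batch in the model). Cxcr4 had an unadjusted edgeR p of 0.00172 there. It passed on the authors' batch-corrected counts, in a fit that does not count the earlier correction and may give too small a p.

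In the Tomato experiment, Cdh5(PAC)-CreERT2, a Cre driven by an endothelial cadherin gene, switched on a Rosa26 Tomato reporter in adult mice labelled Plxnd1 WT. The groups were uninjured nerve (intact, n = 5) and the bridge tissue of the lesion, taken 7 days (7 dpi, n = 5) or 14 days (14 dpi, n = 4) after the injury. In the Cherry experiment all mice carried a Kdr-Cherry reporter, and bridge cells at 7 dpi came from controls labelled Plxnd1 WT (3 libraries) or from mice with Cdh5 CreER and Plxnd1 fl/fl alleles (KO, 3 libraries). Nerves were pooled before sorting of reporter-positive, CD45-negative cells, polyA RNA was sequenced in batches labelled 1133 and 1292, and each group had libraries of both. The labels also name the injury a crush. Mouse strain, sex and the induction of Cre in the controls are not stated, and no label ties a library to its animals, so that the p-values rest on library-to-library spread alone and some of it may be technical.

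CXCL12 is a chemokine that binds to matrix and cell-surface heparan sulfate and draws in cells that carry CXCR4, a receptor that signals through inhibitory G proteins. ACKR3 is an atypical receptor: it binds the same ligand without classical G protein signalling, takes it up and so limits how much reaches CXCR4. In growing vessels Cxcr4 is known as a gene of sprouting tip cells, and Cxcl12 as a gene of arterial endothelium and of stromal cells.

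In mm10 (GRCm38), the build of the tables, Cxcl12 lies on the plus strand of chr6:117168535-117181367, Cxcr4 on the minus strand of chr1:128588199-128592290 and Ackr3 on the plus strand of chr1:90203980-90216751. No other gene of the GENCODE M21 annotation shares exon bases with any of them. Because one gene rose while the other pair fell, the 250 bases before each RefSeq start site (GRCm38.p6) are shown 5′ to 3′ on the gene's strand, with matches to a hypoxia response core (ACGTG or GCGTG) and to a TATA box (TATAAA), on either strand, in capitals. They are chr6:117168285-117168534 for Cxcl12, chr1:128592300-128592549 for Cxcr4 and chr1:90203730-90203979 for Ackr3.
Cxcl12: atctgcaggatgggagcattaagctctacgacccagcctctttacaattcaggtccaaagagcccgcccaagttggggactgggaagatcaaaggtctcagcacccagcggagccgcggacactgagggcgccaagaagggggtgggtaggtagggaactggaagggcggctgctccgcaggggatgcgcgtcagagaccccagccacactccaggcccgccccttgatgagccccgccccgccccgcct
Cxcr4: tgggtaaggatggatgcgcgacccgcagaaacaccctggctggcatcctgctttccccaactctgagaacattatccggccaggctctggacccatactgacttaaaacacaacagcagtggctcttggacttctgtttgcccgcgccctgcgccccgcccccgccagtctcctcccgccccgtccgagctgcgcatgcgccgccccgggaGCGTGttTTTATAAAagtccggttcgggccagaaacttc
Ackr3: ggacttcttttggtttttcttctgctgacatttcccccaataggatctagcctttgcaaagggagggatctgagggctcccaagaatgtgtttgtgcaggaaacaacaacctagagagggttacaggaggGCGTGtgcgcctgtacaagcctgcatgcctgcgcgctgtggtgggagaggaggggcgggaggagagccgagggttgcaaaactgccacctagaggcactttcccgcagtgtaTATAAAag
The Cxcr4 window held GCGTG at 39 to 35 bases before the start and, beside it, 2 overlapping matches of the TATA letters, 1 on each strand, at 32 to 25 bases. The Ackr3 window held GCGTG at 120 to 116 bases and TATAAA at 8 to 3 bases before the start. The Cxcl12 window held neither, and it was the richest of the 3 in GC (64.4%, against 61.2% for Cxcr4 and 54% for Ackr3; the median of 32851 promoters was 52.4%), with 5 matches of the GC box (GGGCGG, 2 of them sharing a base), where Cxcr4 had 3 and Ackr3 had 1. Of all 32851 promoters, 38.6% held a hypoxia core, 12.4% a TATA box and 32.7% a GC box in this window. An RBPJ core (TGGGAA, in 21.6% of promoters) and a CACCC box (CCACCC, in 28.1%) were found once each before Cxcl12 and in neither receptor's window. These are matches of letters and show no binding.

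Libraries held 19057029 to 34181449 counts. Plxnd1, the targeted gene, went with the labels, at 324 to 350 CPM (counts scaled to library size) in WT libraries against 131.4 to 160.5 CPM in KO libraries. All 20 pan-endothelial markers were detected in every library and summed to 7630 to 19639 CPM. Markers of other nerve cells were present too: 17 fibroblast markers summed to 4874 to 43282 CPM in Tomato libraries against 965 to 3533 CPM in Cherry libraries, and 10 perineurial markers to 659 to 7755 CPM against 261 to 470 CPM. In such bulk samples, fewer cells of a type and less RNA per cell cannot be told apart. Changes were tested with edgeR's quasi-likelihood test with batch in the model, and a gene was called at a Benjamini-Hochberg adjusted p under 0.05 over all genes tested. Fold changes are log2 with their standard error (SE). Summed CPM of 4 Y-linked genes was 40.4 to 245 in the 5 intact libraries, 215 in 1 and at most 0.0283 in 4 of the 5 libraries at 7 dpi, and 180 and 259 in 2 and 0 in 2 of the 4 at 14 dpi, so the sex of the mice was uneven across the injury groups. With these genes as a covariate the 7 dpi values were -1.46 ± 0.23 for Cxcl12, 2.87 ± 0.34 for Cxcr4 and -1.44 ± 0.24 for Ackr3, all still called (adjusted p at most 4.07e-04, edgeR). At 7 dpi 1 library alone had Y-linked counts like those of intact nerve, and at 14 dpi they were found in batch 1292 only. That fit thus has little with which to tell sex from injury.

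Cxcl12 was the most abundant of 15 CXC chemokine genes per transcript length in intact nerve, with a mean of 612 TPM (counts scaled for transcript length and library depth) and 77.3% of their summed TPM, and more abundant than 99.5% of all genes with any count. The 5 intact libraries held 2171, 2252, 1956, 1640 and 1575 CPM, a mean of 1919 ± 305 CPM (SD, n = 5). The 5 libraries at 7 dpi held 922, 809, 1132, 459 and 519 CPM, and the 4 at 14 dpi held 979, 1016, 693 and 939 CPM. Every injured library lay below every intact one, and the groups at 7 and 14 dpi overlapped.

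Cxcl12 fell by 1.37 ± 0.16 on the log2 scale at 7 dpi (adjusted p = 5.40e-06, edgeR) and by 1.01 ± 0.17 at 14 dpi (adjusted p = 6.65e-04, edgeR), both against intact. At 7 dpi 32% of the 20409 genes tested were called, 15.7% higher and 16.3% lower, and at 14 dpi 12% were, 6.86% higher and 5.09% lower, so a call of itself was common. The value at 14 dpi against 7 dpi was 0.35 ± 0.17 (adjusted p = 0.229, edgeR), where 9.93% of genes were called, 5.73% higher and 4.2% lower. Within batch 1292 Cxcl12 was -1.15 ± 0.15 at 7 dpi and -1.11 ± 0.18 at 14 dpi against intact, and within batch 1133 -1.69 ± 0.34 and -0.91 ± 0.34, the last without a call (adjusted p = 0.208, edgeR). In exact two-sided permutation tests of log2 CPM the falls gave p = 0.00794 at 7 dpi and p = 0.0159 at 14 dpi, the smallest these group sizes allow, and p = 0.0272 each after adjustment over the 12 tests of the 3 genes in 4 comparisons.

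The order of the ligands differed after injury. Of 14 other CXC ligand genes 10 were tested, and 6 rose and 0 fell at 7 dpi and again at 14 dpi, with a median of 1.08 at 7 dpi against -0.10 over all genes, of which 15.7% and 6.86% were called higher. Cxcl1, a neutrophil attractant, rose by 1.26 ± 0.16 at 7 dpi and 1.48 ± 0.17 at 14 dpi (adjusted p = 1.21e-05 and 1.87e-05, edgeR). Its mean went from 143 TPM in intact nerve to 322 TPM at 7 dpi, above the 233 TPM of Cxcl12, whose share of the ligands' TPM was then 37.4%. Cxcl10, an interferon-induced ligand of another receptor, rose by 1.17 ± 0.39 and 1.46 ± 0.41. Cxcl11, which binds ACKR3 as well, stayed under 1 CPM in every library of the 5 groups.

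**Figure D1:**
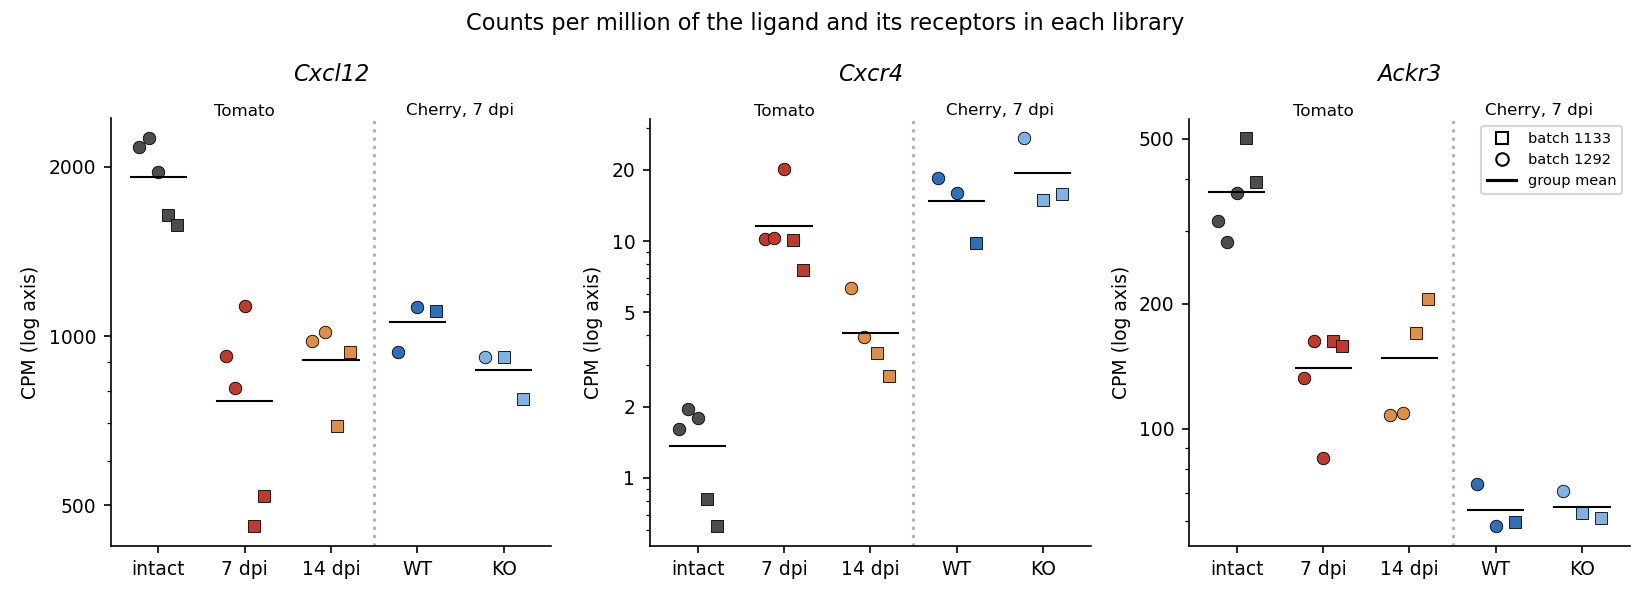
CPM of Cxcl12, Cxcr4 and Ackr3 (log axes) in each of 20 libraries, by group; squares are batch 1133, circles batch 1292, and lines are group means. Intact libraries sit above all injured Tomato libraries for Cxcl12 and Ackr3 and below them for Cxcr4.

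The signalling receptor moved the other way. Cxcr4 was scarce in intact nerve, at 1.61, 1.96, 1.79, 0.816 and 0.625 CPM in the 5 libraries, from 19 to 47 counts each. At 7 dpi the libraries held 10.2, 10.3, 20.1, 10.1 and 7.53 CPM, and at 14 dpi 6.34, 3.93, 3.37 and 2.69 CPM. The 3 groups did not overlap: every library at 7 dpi was above every library at 14 dpi, and every one of those above every intact library. Cxcr4 rose by 3.17 ± 0.27 at 7 dpi (adjusted p = 1.81e-07, edgeR), which was the call with rank 242 by p among 20409 genes, and was 1.72 ± 0.27 above intact at 14 dpi (adjusted p = 4.24e-04, edgeR). Between 7 and 14 dpi it fell by 1.45 ± 0.27 (adjusted p = 0.00241, edgeR). That call was lost with the mean of perineurial markers as a covariate (-0.94 ± 0.43, adjusted p = 0.336, edgeR) and with that of fibroblast markers (-1.23 ± 0.34, adjusted p = 0.0609, edgeR). The perineurial mean did not overlap between 7 and 14 dpi, so the fit with it cannot tell it from time. The permutation p was 0.00794 for the first of these contrasts and 0.0159 for each of the others, exact and two-sided, again the smallest possible.

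Within batches the rise of Cxcr4 was 2.93 ± 0.35 in 1292 and 3.63 ± 0.52 in 1133. The fall from 7 to 14 dpi was -1.42 ± 0.38 and -1.50 ± 0.47 there, but neither smaller fit gave a call (adjusted p = 0.0645 and 0.196, edgeR). Without the highest of these libraries (replicate 3, 20.1 CPM) the group's range at 7 dpi was 7.53 to 10.3 CPM, still above the highest library at 14 dpi.

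Some general endothelial genes were higher at 7 dpi too, by less: Cdh5 by 0.95 ± 0.15, Pecam1 by 0.78 ± 0.18 and Kdr by 0.76 ± 0.19. Of 20 pan-endothelial markers 10 rose and 3 fell, where 15.7% and 16.3% of all genes did. Among the falls were Cldn5 (-2.33 ± 0.18) and Sox17 (-0.64 ± 0.15). The sum of the 20 had a median of 13891 CPM in intact libraries and 14228 CPM at 7 dpi. Replicate 3 at 7 dpi, with the highest Cxcr4, also had the highest Kdr (799 CPM) and Pecam1 (2937 CPM) of the Tomato libraries. Its Cdh5 (636 CPM) was below that of replicate 1 at 7 dpi (724 CPM). Its sum of the 20 markers (17957 CPM) was below that of intact replicate 2 (19424 CPM), where Cxcr4 was 1.96 CPM. The part of endothelial purity in the Cxcr4 level was not tested.

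Cxcr4 is also a gene of leukocytes. The summed level of 14 macrophage markers was 35.9 to 58.2 CPM in intact libraries (median 48.7), 81.5 to 440 CPM at 7 dpi (median 112) and 52.4 to 1309 CPM at 14 dpi (median 77.8), so their medians took the same order as Cxcr4, while the highest single sum was at 14 dpi. Within groups the libraries went both ways. The lowest sums at 7 dpi (replicate 3) and 14 dpi (replicate 1) came with the highest Cxcr4 there, 20.1 and 6.34 CPM. Intact replicate 2 had the highest sum and the highest Cxcr4 (1.96 CPM) of its group. Of 13 macrophage markers tested, 3 rose and 0 fell at 7 dpi, where 32% of all genes were called. The 14 markers of other leukocytes, among them the pan-leukocyte gene Ptprc, summed to 3.77 to 16.2 CPM in intact libraries, 1.28 to 6.69 CPM at 7 dpi and 5.06 to 19 CPM at 14 dpi, and Nkg7 was at 0 in all intact libraries. Cells were sorted as CD45-negative, and the part of leukocyte RNA in the Cxcr4 level was not tested.

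The scavenging receptor followed the ligand. Ackr3 held 316, 282, 369, 502 and 393 CPM in the 5 intact libraries. At 7 dpi it held 132.9, 162, 85.0, 163 and 158 CPM, and at 14 dpi 108, 109, 170 and 206 CPM. Both injured groups lay wholly below intact and overlapped each other. Ackr3 fell by 1.40 ± 0.17 at 7 dpi (adjusted p = 6.57e-06, edgeR) and by 1.41 ± 0.18 at 14 dpi (adjusted p = 6.02e-05, edgeR). Between 7 and 14 dpi the difference was -0.01 ± 0.17, with an interval of -0.35 to 0.33 (1.96 SE on each side; adjusted p = 0.986, edgeR). Within batches the fall at 7 dpi was -1.34 ± 0.22 in 1292 and -1.46 ± 0.33 in 1133, and at 14 dpi -1.59 ± 0.25 and -1.19 ± 0.33, the last without a call (adjusted p = 0.0788, edgeR).

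From intact nerve to 7 dpi the markers of perineurial cells, the flat cells of the sheath around nerve fascicles, fell along with Ackr3, and from 7 to 14 dpi they rose while Ackr3 was at -0.01 ± 0.17. The 10 perineurial markers summed to 4954 to 7755 CPM in intact libraries, 659 to 1571 CPM at 7 dpi and 1889 to 4369 CPM at 14 dpi. Of the 10, 8 were called lower and 1 higher at 7 dpi against intact, where 16.3% and 15.7% of all genes were. At 14 against 7 dpi 7 were higher and 0 lower, where 5.73% and 4.2% of all genes were. The library at 7 dpi with the lowest sum (replicate 3, 659 CPM) also had the lowest Ackr3 of the Tomato libraries, 85.0 CPM. With the mean of these markers as a covariate, the fall of Ackr3 at 7 dpi was -0.65 ± 0.22 and no longer called (adjusted p = 0.0686, edgeR), while that at 14 dpi was -1.32 ± 0.13 (adjusted p = 3.84e-06, edgeR). The value at 14 against 7 dpi was then -0.67 ± 0.21 (unadjusted p = 0.00522, adjusted p = 0.176, edgeR). The mean (log2 CPM) was 6.41 to 7.60 in intact libraries, 4.12 to 5.99 at 7 dpi and 6.29 to 7.38 at 14 dpi. It thus separated 7 dpi from both other groups, where the fit cannot tell it from injury or time. In the Cherry libraries, with perineurial sums of 261 to 470 CPM, Ackr3 was still present at 58.3 to 73.5 CPM. How far perineurial RNA carried the fall was not tested beyond that covariate, which cannot answer it at 7 dpi.

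For Cxcl12 the fibroblast markers are the ones to set beside it, since stromal cells make this chemokine. Their sum was 12769 to 22227 CPM in intact libraries, 4874 to 21883 CPM at 7 dpi and 18946 to 43282 CPM at 14 dpi. Its members went both ways at 7 dpi, where 7 rose and 4 fell of 17, with Lum at 2.34 ± 0.42, Dcn at -1.49 ± 0.33 and Gsn at -2.12 ± 0.33. Of 13 mural cell markers 1 rose and 7 fell at 7 dpi. Of all genes 15.7% rose and 16.3% fell there. The part of stromal RNA in the fall of Cxcl12 was not tested beyond the covariate given here. At 7 dpi replicate 3, with the lowest fibroblast sum (4874 CPM), had the highest Cxcl12 (1132 CPM), and the Cherry libraries, with sums of 965 to 3533 CPM, held 772 to 1128 CPM. With the fibroblast mean as a covariate Cxcl12 was -1.27 ± 0.17 at 7 dpi (adjusted p = 1.95e-05, edgeR) and -0.70 ± 0.25 at 14 dpi, where the call was lost (adjusted p = 0.155, edgeR). The mean (log2 CPM) was 6.05 to 6.54 in intact libraries and 7.24 to 8.27 at 14 dpi. It thus separated these groups, and the fit at 14 dpi cannot tell it from injury.

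**Figure D2:**
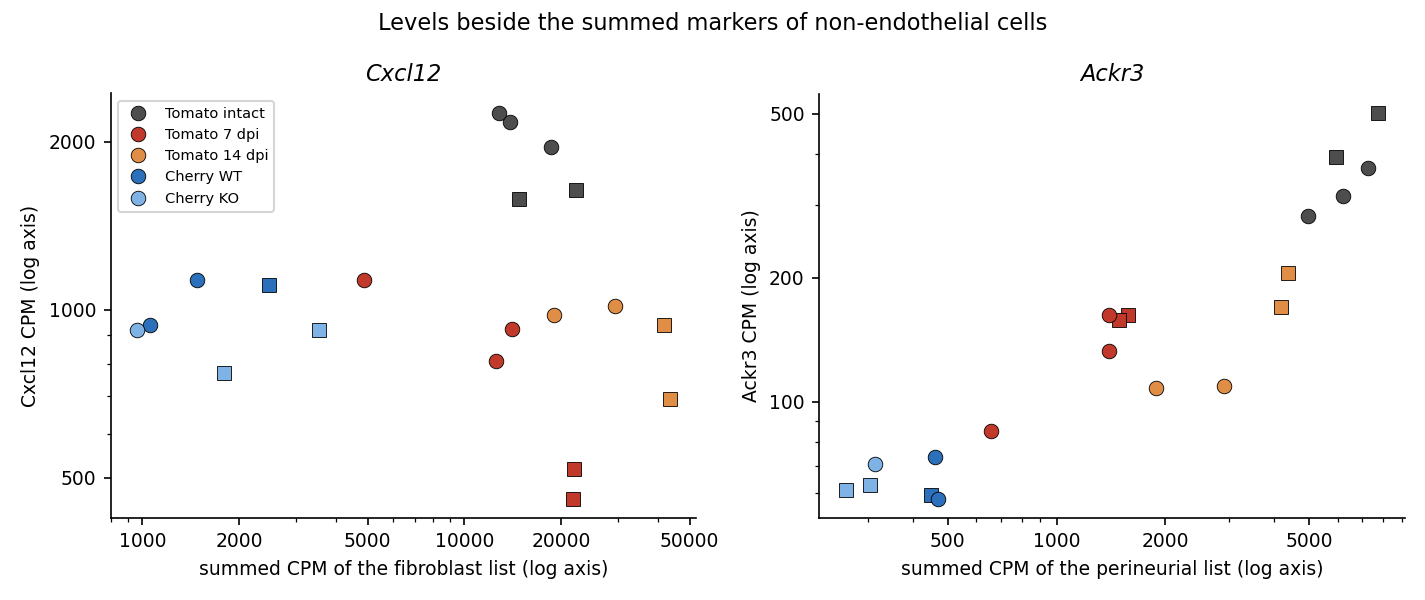
Left, CPM of Cxcl12 against the summed CPM of 17 fibroblast markers; right, CPM of Ackr3 against the summed CPM of 10 perineurial markers. Each point is 1 of 20 libraries (log axes; squares batch 1133, circles batch 1292). Ackr3 is highest in intact libraries (282 to 502 CPM), where the perineurial sums are highest, but the libraries at 14 dpi, with sums of 1889 to 4369 CPM, overlap in Ackr3 with those at 7 dpi, with sums of 659 to 1571 CPM.

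Ratios of the genes within a library do not depend on its scaling. Counts per base of exon gave 335 Cxcl12 for each Cxcr4 in intact nerve (median of 5 libraries, range 272 to 619), 17.3 at 7 dpi (11.4 to 22.8) and 58.2 at 14 dpi (38.8 to 87.3). The 3 groups did not overlap, and the log2 ratio was 4.52 lower at 7 dpi than in intact nerve (exact two-sided permutation p = 0.00794, adjusted p = 0.0381 over 12 tests) and 1.81 higher at 14 than at 7 dpi (exact permutation p = 0.0159, adjusted p = 0.0381). Between the receptors, intact libraries held 84 to 361 Ackr3 for each Cxcr4 (median 120), those at 7 dpi 2.49 to 12.4 (median 9.29) and those at 14 dpi 10.0 to 44.7 (median 23.0). The log2 ratio of Cxcr4 to Ackr3 was 4.55 higher at 7 dpi and 2.99 higher at 14 dpi than in intact nerve (adjusted exact permutation p = 0.0381 each). Its change from 7 to 14 dpi was -1.56, with overlapping groups (exact permutation p = 0.0317, adjusted p = 0.0635). Centred on batch means it was -1.44 and passed (adjusted permutation p = 0.0272). After centring, libraries were still permuted across batches, so that p is approximate. In every library Ackr3 stayed above Cxcr4 per length.

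For ligand to scavenging receptor the groups overlapped. The median ratio was 2.27 in intact nerve (1.40 to 3.41), 2.13 at 7 dpi (1.21 to 5.69) and 2.92 at 14 dpi (1.74 to 3.98), and in each of these groups every library of batch 1133 was below every library of batch 1292. The log2 difference was 0.03 at 7 dpi and 0.28 at 14 dpi against intact (exact permutation p = 0.937 and 0.460). After values were centred on their batch, the difference at 14 dpi was 0.37 with an adjusted permutation p of 0.0272. That p is approximate, since libraries were still permuted across batches.

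**Figure D3:**
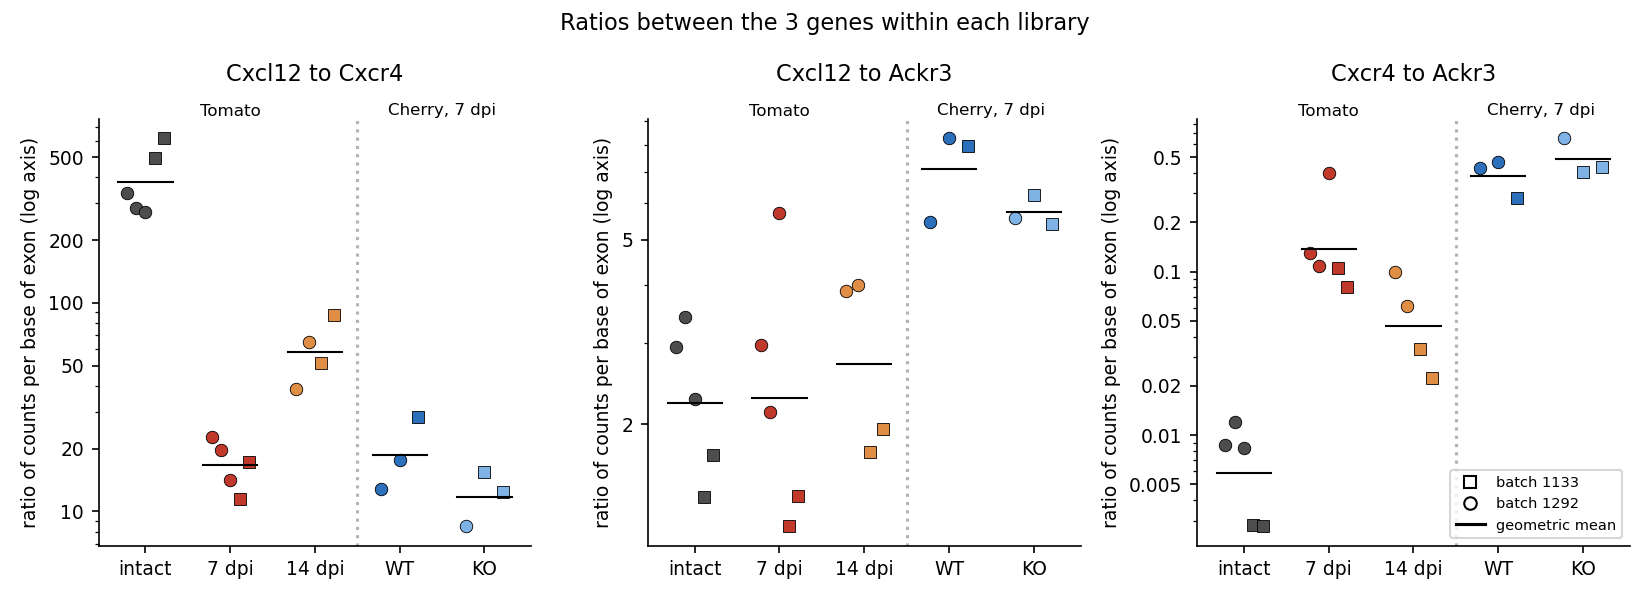
Ratios of counts per base of exon between pairs of the 3 genes in each of 20 libraries (log axes; lines are geometric means; squares batch 1133, circles batch 1292). The ratio of Cxcl12 to Cxcr4 goes from a median of 335 in intact nerve to 17.3 at 7 dpi and 58.2 at 14 dpi.

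Among 23 chemokine receptor genes, Ackr1, a decoy receptor of venules, led in each group by mean TPM and Ackr3 came next. In intact nerve Ackr1 held 334 TPM, Ackr3 278 TPM and Cxcr4, number 6 in the order, 1.70 TPM. At 7 dpi they held 619, 99.1 and 14.0 TPM, so that Ackr3 went from 42.0% to 13.1% of the receptors' summed TPM and Cxcr4 from 0.257% to 1.85%. In the Cherry controls Ackr1 held 1006 TPM, Ackr3 46.3 TPM and Cxcr4, number 3 in the order there, 18 TPM. Of the 21 receptors other than Cxcr4 and Ackr3, 13 passed the filter. At 7 dpi 4 of the 13 were called, a share near the 32% of all genes: 1 was higher (Ackr1, 1.11 ± 0.38) and 3 lower, among them Ccrl2, which binds chemerin (-0.89 ± 0.19). The other receptors called lower there were Ackr4 and Ccr9, named after their values were seen. Ackr1 itself ranged from 46.2 to 496 CPM over the intact libraries.

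**Figure D4:**
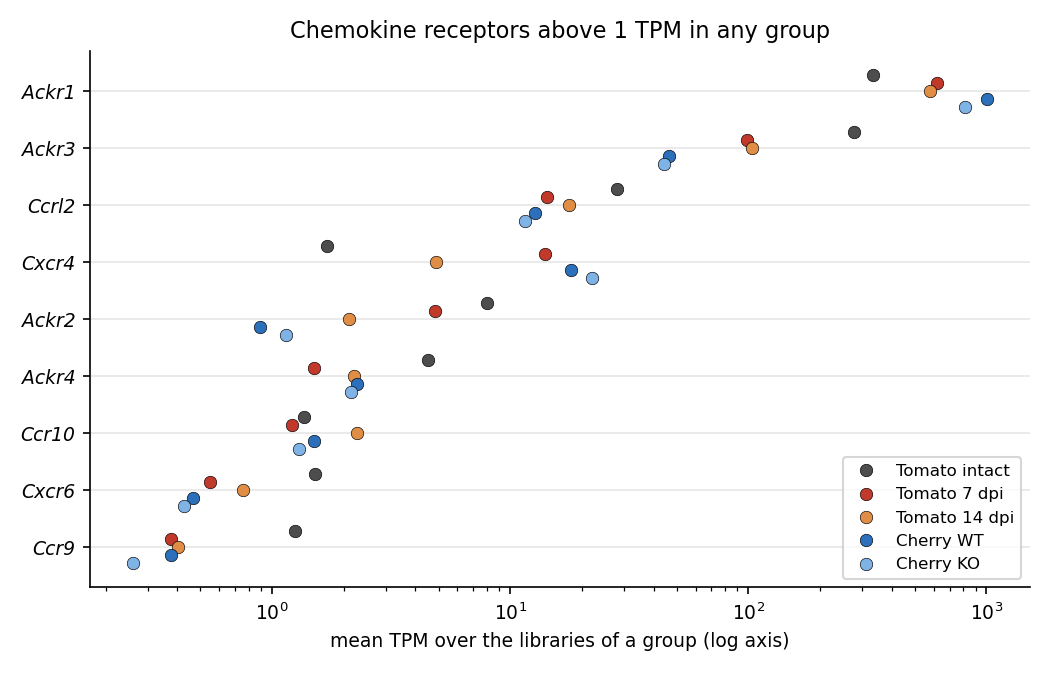
Mean TPM (log axis) of the chemokine receptors above 1 TPM in any group; colours are the 5 groups. Ackr1 and Ackr3 lead in each group, and Cxcr4 has its lowest point, 1.70 TPM, in intact nerve.

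Loss of Plxnd1 was compared at 7 dpi with the 6 Cherry libraries, where 0.308% of 16227 genes were called, 0.129% higher and 0.179% lower. Cxcr4 held 18.5, 16 and 9.81 CPM in WT and 27.3, 14.9 and 15.8 CPM in KO libraries. The groups overlapped, but within each batch every KO library was above every WT library: 27.3 against 18.5 and 16 CPM in batch 1292, and 14.9 and 15.8 against 9.81 CPM in batch 1133. The fit gave 0.65 ± 0.16 for Cxcr4 (unadjusted p = 0.00172, adjusted p = 0.165, edgeR), with an interval of 0.33 to 0.98, and within batches 0.66 ± 0.24 and 0.65 ± 0.28. On the counts that the authors had corrected for batch with ComBat-Seq, fitted without a batch term, it was 0.66 and passed (adjusted p = 0.0241, edgeR), as did 550 genes in place of 50. That fit does not count the correction made beforehand, so its p is approximate and may be too small (SE 0.10 in place of 0.16). DESeq2 gave 0.66 with an adjusted p of 0.0531. With summed Y-linked genes as a covariate it was 0.55 ± 0.29 (unadjusted p = 0.0934, edgeR). These genes summed to 73.1 to 79.3 CPM in WT and 81.1 to 107 CPM in KO libraries. The covariate thus separated the genotypes, and that fit cannot tell it from the deletion. The exact permutation test gave p = 0.6 for Cxcr4 without regard to batch. On values centred on batch means the permutation test gave p = 0.1, the smallest it can reach for 3 against 3. Libraries were still permuted across batches there, so that p is approximate.

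Cxcl12 held 938, 1128 and 1107 CPM in WT and 920, 918 and 772 CPM in KO libraries. Each KO library lay below each WT library, by little: -0.28 ± 0.11 (unadjusted p = 0.0299, adjusted p = 0.380, edgeR; exact permutation p = 0.1). With summed Y-linked genes as a covariate it was -0.02 ± 0.20 (unadjusted p = 0.902, edgeR). That fit, too, cannot tell the covariate from the deletion. The start of Cxcl12 lies 1.17 Mb from Plxnd1 on chromosome 6. Of 42 genes tested within 2 Mb of Plxnd1, with Plxnd1 left out and Cxcl12 among them, 4 were called. Over all 16227 genes 0.308% were called. The 4 were all higher: Ift122, Mbd4, Timp4 and Tmcc1, named after their values were seen. Ackr3 held 73.5, 58.3 and 59.6 CPM in WT and 70.7, 62.9 and 61.2 CPM in KO libraries. The groups overlapped, and the difference was 0.08 ± 0.12 (adjusted p = 0.840, edgeR), with an interval of -0.15 to 0.31. The perineurial sum was 448 to 470 CPM in WT and 261 to 315 CPM in KO libraries. Of 7 perineurial markers tested, 1 was called, Moxd1, at -1.61 ± 0.13 (adjusted p = 1.11e-04, edgeR), and 6 were not. Of all genes 0.308% were called.

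**Figure D5:**
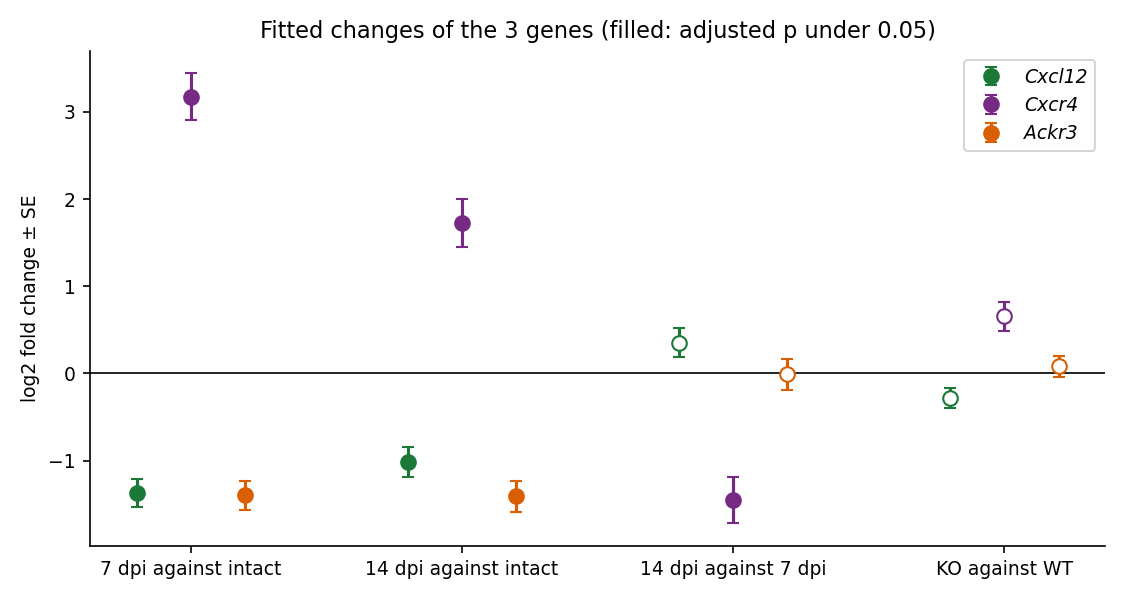
Fitted log2 fold changes of Cxcl12, Cxcr4 and Ackr3 with their SE in the 4 comparisons; filled points have an adjusted p under 0.05. At 7 dpi Cxcr4 is at 3.17 while Cxcl12 and Ackr3 are at -1.37 and -1.40; the points of KO against WT are open.

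Other genes act on the ligand or its receptors outside the cell. Of 16 listed partners 14 were tested in the Tomato libraries; at 7 dpi 8 rose and 4 fell, with a median of 0.81 against -0.10 over all genes, and at 14 dpi 5 rose and 2 fell. Over all genes 32% and 12% were called. Proteases that cleave CXCL12 moved in both directions: Mmp2 rose by 2.65 ± 0.36, Mmp14 by 1.67 ± 0.21 and Mmp9 by 3.91 ± 0.60 at 7 dpi, while Dpp4 fell by 2.22 ± 0.27 (adjusted p at most 8.47e-05, edgeR). Of the heparan sulfate carriers, Hspg2 (perlecan) rose by 1.64 ± 0.19, and the syndecan Sdc4 fell by 2.62 ± 0.28 and the glypican Gpc1 by 0.95 ± 0.32. Ext1, an enzyme that builds heparan sulfate chains, rose by 1.20 ± 0.14.

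Further ligands of the axis were among them. Cxcl14, a chemokine reported to bind CXCR4, rose by 2.67 ± 0.48, Mif, which also uses CXCR4, by 0.73 ± 0.15, and Hmgb1, which forms a complex with CXCL12, by 0.67 ± 0.14, all at 7 dpi. The mean of Cxcl14 was low, 0.573 TPM in intact nerve and 3.46 TPM at 7 dpi, where Cxcl12 held 233 TPM. Adm, which binds ACKR3, was -0.04 ± 0.17 and not called, and Cd74, the MIF receptor, was lower by a wide margin of error (-3.98 ± 1.27, adjusted p = 0.0325, edgeR). From 7 to 14 dpi 3 of 14 partners tested rose (Sdc4, Dpp4 and Gpc1) and 3 fell (Mmp9 by 2.35 ± 0.60, Mif by 0.83 ± 0.17 and Ext1 by 0.49 ± 0.15). Over all genes 5.73% were called higher and 4.2% lower there. Of the partners that fell at 7 dpi, Dpp4 is also a fibroblast gene; it held 44.8 to 71.8 CPM in intact libraries and 1.52 to 2.10 CPM in the Cherry WT libraries, and the part of other cells' RNA was not tested. Of 13 partners tested in KO against WT, edgeR and DESeq2 each called 0, and 4 had an unadjusted edgeR p under 0.05 (Adm, Gpc1, Mif and Mmp9), as did 11.5% of all 16227 genes.

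Inside the cell, genes of CXCR4 signalling mostly rose at 7 dpi: of 20 tested, 12 were higher and 1 lower, where 15.7% and 16.3% of all genes were, with a median of 0.43 against -0.10 over all genes. Gng2, a G protein gamma subunit, rose by 2.51 ± 0.22 and Elmo1, a partner of Rac activators, by 1.12 ± 0.18 (adjusted p = 2.81e-07 and 1.13e-04, edgeR). At 14 dpi 2 of the 20 were higher, Gng2 by 1.95 ± 0.23 and Jak2 by 0.73 ± 0.15, and 0 were lower. Of all genes 6.86% were called higher and 5.09% lower there, so this count was near the share over all genes. Of 13 genes that end receptor signalling, 3 rose and 2 fell at 7 dpi, a share near the 32% of all genes; Rgs2, which speeds the shut-off of G proteins, rose by 1.76 ± 0.18, and the receptor kinase Grk6 fell by 0.51 ± 0.18. Of 19 transcription regulators 4 rose and 5 fell, against the same 32%. Hif1a, the hypoxia factor known to raise Cxcr4, rose by 0.96 ± 0.12 at 7 dpi and fell by 0.60 ± 0.12 from 7 to 14 dpi (adjusted p = 7.71e-06 and 0.00540, edgeR). Foxc1 and Foxc2, known regulators of Cxcr4, fell by 1.23 ± 0.21 and 1.36 ± 0.23 at 7 dpi. In KO against WT edgeR and DESeq2 each called 0 genes of these 3 lists, and an unadjusted edgeR p under 0.05 was found for 2 of 20 signalling genes, 1 of 11 that end signalling and 5 of 19 regulators, against 11.5% of all genes.

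A list of tip cell genes was taken without Cxcr4. Of its 19 genes 15 rose and 0 fell at 7 dpi, 11 rose and 2 fell at 14 dpi, and 0 rose and 9 fell from 7 to 14 dpi, with medians of 1.39, 0.85 and -0.64. Of all genes 15.7% rose at 7 dpi, 6.86% rose at 14 dpi and 4.2% fell from 7 to 14 dpi. The list's falls at 14 dpi were Flt4 and Pdgfb, and 10 of the 19 were not called from 7 to 14 dpi. Apln, a ligand made by tip cells, rose by 3.47 ± 0.20 at 7 dpi and fell by 1.71 ± 0.21 from 7 to 14 dpi, and Lamb1, a laminin chain, rose by 3.14 ± 0.28. In KO against WT 1 of the 19 was called, Apln (0.92 ± 0.16, adjusted p = 0.0425, edgeR), where 0.308% of all genes were. Of 15 arterial markers 5 rose and 6 fell at 7 dpi, where 32% of all genes were called; Bmx, an arterial kinase, fell by 2.54 ± 0.21 and Gkn3 by 1.78 ± 0.25. Of 10 venous markers tested there, 5 rose and 2 fell; Aplnr, the apelin receptor, rose by 3.20 ± 0.23, and Nr2f2, the venous fate factor, fell by 1.61 ± 0.22. In KO against WT 2 of 10 venous markers tested were called, against the same 0.308%. These were the adhesion genes Icam1 (-0.65 ± 0.11) and Selp (-0.56 ± 0.09), both lower. Of 15 arterial markers edgeR and DESeq2 each called 0 there, with 5 at an unadjusted edgeR p under 0.05, against 11.5% of all genes. Some genes stand in more than 1 of these lists.

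Among 10059 genes compared over the 14 Tomato libraries, those whose log2 CPM was most like that of Cxcl12 were Lsr (r = 0.98), Bmx, Enpp5, Eps8l2 and Stx3 (r = 0.97 each). Most like Cxcr4 were Jak1, Ap1s2 and Lcp1 (r = 0.98 each), Knop1 and Hmgb3 (both r = 0.97), and most like Ackr3 were Aldh1l1, Phyh, Paqr5 and Tmem221 (r = 0.97 each). These values follow the 3 groups, which the libraries share. Once group and batch means were taken out, the most similar to Cxcl12 was Klhl2 (r = 0.89). For Cxcr4 they were Utp14a (r = 0.91), Rapgef5 (r = 0.88), Ddx58, Esm1 and Lcp1 (r = 0.87 each). Of these, Esm1 is on the tip cell list, and Lcp1 was also among the most similar before. For Ackr3 they were Nkain4 (r = 0.96), Ephx1, Pdlim2 and Selenbp1 (r = 0.93 each), and Pdpn, podoplanin (r = 0.92). Among the 3 genes themselves r was -0.88 for Cxcr4 and Ackr3, -0.66 for Cxcl12 and Cxcr4 and 0.61 for Cxcl12 and Ackr3, and -0.49, -0.04 and -0.14 without group and batch means.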

How the data were processed

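The deposited tables hold raw counts per gene, with 1 table for each experiment; a further deposited table holds the Cherry counts after the authors' ComBat-Seq batch correction, per the labels. The submitters' processing notes name Trimmomatic 0.39, STAR 2.5.3a, featureCounts 1.6.4 and, although these are bulk libraries, Cell Ranger 3.0.2; no source here states the strand or multi-mapping settings. Counts were fitted as deposited with edgeR 4.0.16 (R 4.3.3; filterByExpr, TMM scaling, robust quasi-likelihood test, batch as a term), the 14 Tomato libraries in 1 fit and the 6 Cherry libraries in another. The SE is the absolute log2 fold change over the square root of F. CPM are TMM-scaled within an experiment, so levels set across experiments are descriptions. Permutation tests (scipy 1.17.1) used log2 CPM with a prior count of 0.5, and ratios the counts per exonic base. DESeq2 1.42.0 was an alternative. The edgeR fit was tested on simulated data: for 7 dpi against intact (19503 genes) it recovered 40.9% of 88 genes changed by 1 on the log2 scale and 63% of 100 changed by 2, with 7.48% of calls false, and for KO against WT (15642 genes) 59.4% of 106 and 86.7% of 83, with 4.93% false.

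The 3 genes and all lists were chosen with earlier results of these data known. Besides the 3 genes, the partner genes and the checks (Plxnd1, endothelial markers), each list gave by rule up to 2 rises and 2 falls of greatest fold among called genes with a mean log2 CPM of at least 3, the first 2 symbols of marker lists, and up to 5 similar genes; the text names part of these. Replicates within a group were not duplicates (chi-square per degree of freedom at least 18.2).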

Additional observations from a re-analysis of the deposited data

Results flagged for a closer look

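Cxcr4 at 7 dpi was flagged for 1 library far from the others: replicate 3 held 20.1 CPM, against 7.53 to 10.3 CPM in the other 4 libraries of that group. Its gap to the next was 0.782 of the group's range. Of 18 groups of values looked at (the 3 genes and their 3 ratios in the 3 Tomato groups) this was the one that passed, and chance flags about 1 in 20. The same library had the lowest perineurial sum (659 CPM) and the lowest fibroblast sum (4874 CPM) of the Tomato libraries. Without it Cxcr4 was 2.997 above intact at 7 dpi on the log2 scale, in place of 3.17.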

How the results depend on the processing

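The falls of Cxcl12 and the rise of Cxcr4 at 7 dpi kept direction and call under the 21 alternatives run for each (Cxcl12 -1.72 to -1.15, Cxcr4 2.57 to 3.63), and so did Cxcr4 at 14 dpi against intact under 20 (1.50 to 2.13). Calls were lost for Ackr3 at 7 dpi with the perineurial covariate (-0.65); for Cxcl12 at 14 dpi in batch 1133 alone (-0.91) and with the fibroblast covariate (-0.70); for Ackr3 at 14 dpi in batch 1133 alone (-1.19); and for Cxcr4 at 14 against 7 dpi in batch 1133 (-1.50) or 1292 (-1.42) alone, where fewer libraries were fitted, and with the perineurial (-0.94) or fibroblast (-1.23) covariate. The perineurial mean did not overlap between 7 dpi and intact or 14 dpi, nor the fibroblast mean between intact and 14 dpi. In those comparisons the fit cannot tell the covariate from injury or time. Cxcr4 in KO against WT passed on ComBat-Seq counts (0.66), where the fit does not count the earlier correction and its p is approximate. Cxcl12 in KO against WT was -0.02 with summed Y-linked genes as a covariate, against -0.28. That covariate did not overlap between WT and KO libraries, so the fit cannot tell it from the deletion. Where no cause is named, the cause was not tested.

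Ackr3 at 14 against 7 dpi, near 0, changed sign with no filter (0.0050), no batch term (0.080), batch 1133 alone (0.27) and the Y-linked covariate (0.0077), was -0.67 with the perineurial covariate, and ranged from -0.13 to 0.11 with 1 library left out, its log2 CPM difference from -0.11 to 0.20. The Ackr3 level in KO against WT was -0.011 with library size as the only scaling and -0.033 to 0.14 with 1 library left out. Centring on batch brought the ratios of Cxcl12 to Ackr3 at 14 dpi against intact (0.37) and of Cxcr4 to Ackr3 at 14 against 7 dpi (-1.44) past the threshold. Those p-values are approximate, since libraries were still permuted across batches.

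Leaving out 1 library raises the smallest p a permutation can reach: level tests at 14 dpi lost their call for 4 of 9 libraries (against intact Ackr3 -1.53 to -1.22, Cxcl12 -1.15 to -0.96, Cxcr4 1.39 to 1.81; Cxcr4 against 7 dpi -1.73 to -1.28). The ratio of Cxcl12 to Cxcr4 lost its call for 5 of 10 libraries at 7 dpi (-4.64 to -4.34) and for 9 of 9 at 14 dpi against intact (-2.91 to -2.52) and against 7 dpi (1.61 to 2.00). That of Cxcr4 to Ackr3 lost it for 5 of 10 at 7 dpi (4.16 to 4.81) and 9 of 9 at 14 dpi against intact (2.62 to 3.34). That of Cxcl12 to Ackr3 at 7 dpi went from -0.30 to 0.26.

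Counts of called genes moved more. KO against WT gave 50, but 421 with DESeq2, 230 with no filter, 5 with no batch term, 31 in batch 1292, 5 with the Y-linked covariate, 550 on ComBat-Seq counts, and 6 to 40 with 1 library left out (25 without WT replicate 1, 11 without WT replicate 3, 9 without KO replicate 1, 6 without KO replicate 3). At 14 against 7 dpi the 2027 became 3249 with DESeq2, 1226 with no batch term, 366 in batch 1133, 726 in batch 1292, 97 and 601 with the perineurial and fibroblast covariates, and 1305 to 1901 with 1 library left out (1305 without 14 dpi replicate 2). At 7 dpi the 6535 became 2042 in batch 1133, 2094 with the perineurial and 4064 with the Y-linked covariate, and at 14 dpi against intact the 2439 became 795 in batch 1133, 1500 in batch 1292 and 1038 with the fibroblast covariate. The labels give the libraries no shared replicate numbers. Some titles run in neighbouring numbers across the groups, but nothing states that these mark a shared source, so no fit was blocked on them. Cxcr4 rested on 19 to 47 counts in each intact library, which limits its precision there.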
